A study of Bos taurus with 36 samples.

Results

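H19, MEG3, PEG3, PLAGL1, DLK1, CDKN1C, PHLDA2, MEST, NNAT and PEG10 are growth-related genes known as imprinted in mammals, and they were taken from the count table by gene symbol, as 10 of its 35092 genes. RNA-seq was run on 36 libraries, from the heart, gonads and liver of 10 male cattle fetuses taken on Day 42 and from the blood of their recipient heifers. In the ET_D7 group (synchronous, 5 fetuses), an embryo of Day 7 was placed in a heifer on cycle Day 7, and in the ET_D9 group (asynchronous, 5 fetuses) an embryo of the same age was placed in a heifer on cycle Day 9. No untreated or naturally mated pregnancy was among the samples analysed here, so that every fetus came from embryo transfer. Fetuses are numbered from 1, the lightest, to 10, the heaviest, and weighed 1.253, 1.293, 1.346, 1.355 and 1.37 g in ET_D7 and 1.396, 1.517, 1.565, 1.659 and 1.69 g in ET_D9. Every ET_D9 fetus was heavier than every ET_D7 fetus, so the effects of weight and of transfer group cannot be told apart. No heart library was present for fetus 7, no gonad library for fetus 2 and no liver library for fetuses 6 and 7, and all 10 heifers had a blood library.

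An imprinted gene is transcribed mainly from the copy inherited from 1 parent, because the 2 copies were marked differently by DNA methylation in the egg and the sperm. H19, MEG3, CDKN1C and PHLDA2 are known as maternally expressed genes, of which CDKN1C and PHLDA2 are restrainers of growth, while PEG3, PLAGL1, DLK1, MEST, NNAT and PEG10 are known as paternally expressed genes. Imprinted genes lie in domains in which a shared control region often sets neighbours in opposite ways, as for H19 and the growth factor gene IGF2 or for MEG3 and DLK1. The deposited counts add up the reads of both parental copies, so they give the level of each gene and not its allelic origin.

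Several libraries were not independent of each other. The gonad libraries of fetuses 6 and 8 differed by less than the sampling noise (median chi-square 0.000564 times the expected value over 13187 genes, with a count ratio of 1.27), and so did the liver libraries of fetuses 1 and 2 (0.268 times), whereas the closest other pair of libraries lay at 3.73 times for heart, 4.01 for gonads, 11.7 for liver and 15.6 for blood. Each of these 2 pairs was counted as 1 sample, which left 9 heart, 8 gonad, 7 liver and 10 blood samples. A further closeness appeared when each library was written as a weighted sum of the others of its tissue. The heart library of fetus 1, the gonad libraries of fetuses 6 and 8 and the liver library of fetus 9 lay within a median of 0.856% to 3.07% of such a sum, built almost wholly from their own transfer group, against 5.58% to 24.5% for the other 32 libraries. The members followed these sums closely, except PLAGL1 in the gonads of fetuses 6 and 8 (2063 and 3111 counts against 1161 and 1477 from the sum) and PHLDA2 in the liver of fetus 9 (67 counts against 26.8). Values without these 4 libraries stand beside the results along weight and between transfer groups that come nearest to the threshold.

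Total counts ranged from 18231089 to 40812354 per library, and mitochondrially encoded genes took 17.1% to 57.3% of them in hearts, 16.3% to 36.8% in livers, 3.31% to 7.23% in gonads and 2.14% to 3.29% in blood. Heart muscle markers summed to at least 34548 CPM (counts scaled to a common library size, after TMM, edgeR's trimmed mean of M-values) in every heart library, and hepatocyte markers to at least 31732 CPM in every liver library. The heart muscle list also summed to 1985 CPM in liver 3, 661 in liver 4 and 374 in liver 5, against at most 105 in the other livers. The libraries labelled gonads went against their label in part. In them all 10 nephron and ureteric bud markers had a median of at least 1 CPM, with a summed level of 432 to 620 CPM, while the Sertoli list summed to 9.23 to 22.02 CPM with GATA4 at a median of 0.054 CPM, the germ cell list to 18.0 to 33.7 CPM, nearly all of it KIT, and the steroidogenic list to 7.09 to 15.4 CPM. They are called gonads here by their label only.

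NNAT (Entrez 353114), which encodes a small membrane proteolipid of developing brain, had 0 counts in all 36 libraries. With 3 counts as the limit and total counts as the only scaling, a count of 0 allows up to 0.0837 to 0.143 CPM in heart libraries. On the same scale the limits are 0.0757 to 0.132 in gonad libraries, 0.0871 to 0.165 in liver libraries and 0.0735 to 0.113 in blood. The other CPM values are scaled by TMM, so these limits cannot be set directly beside them. The limits cover counting error only. In the RefSeq annotation of a later assembly (ARS-UCD2.0) NNAT overlaps BLCAP, and how reads shared by overlapping genes were counted is not given in the sources used here. The other 9 members had counts in every heart and gonad library, and in every liver library except for PHLDA2.

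**Figure D1:**
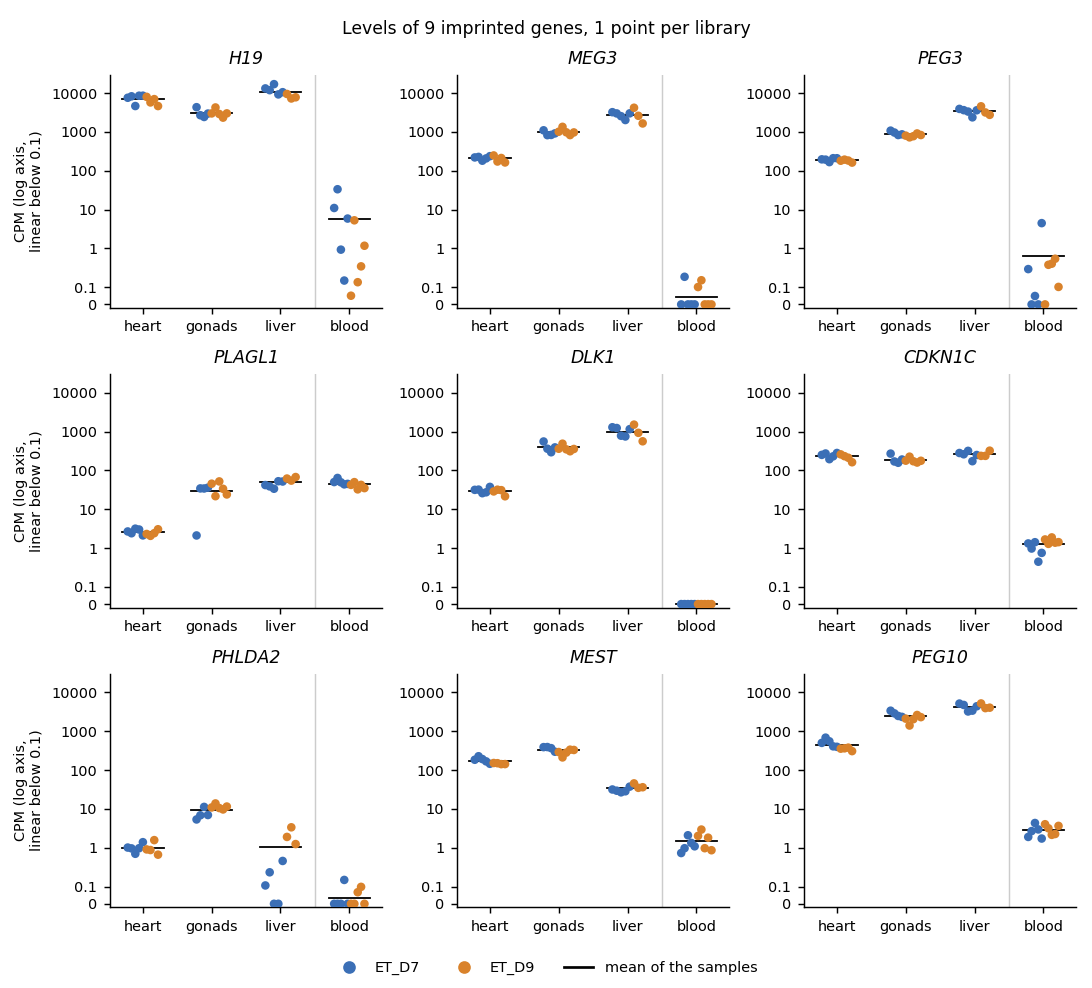
Level of 9 imprinted genes in CPM (vertical log axis, linear below 0.1) in heart, gonads, liver and maternal blood, 1 point per library, coloured by transfer group, with a line at the mean of the samples. H19 lay at 2327 CPM or more in every organ library and at most at 33.3 CPM in blood, while PLAGL1 lay at 32.5 to 63.8 CPM in blood.

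MEG3, PEG3 and DLK1 were ordered alike, highest in the liver, lower in the gonads and lowest in the heart, with no overlap between the libraries of any 2 organs. PLAGL1 and PEG10 had the same order of means with some overlap, PHLDA2 and MEST were highest in the gonads, and H19 and CDKN1C were highest in the liver and lowest in the gonads. Of the 9 members tested, 1 was higher in the heart than in the gonads and 7 were higher in the gonads (edgeR, adjusted p under 0.05), where 22.7% and 22.9% of all 25054 genes tested were called in these directions. Between heart and liver 1 member was higher in the heart and 6 in livers (27% and 30.3% of all genes), and between gonads and liver 2 were higher in the gonads and 7 in livers (30% and 32.6% of all genes). The median member difference was -2.24 log2 units for heart minus gonads, -3.25 for heart minus liver and -0.80 for gonads minus liver, beside medians over all genes of -0.09, 0 and 0. In whole organs, fewer cells of a type and less RNA per cell cannot be told apart.

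**Figure D2:**
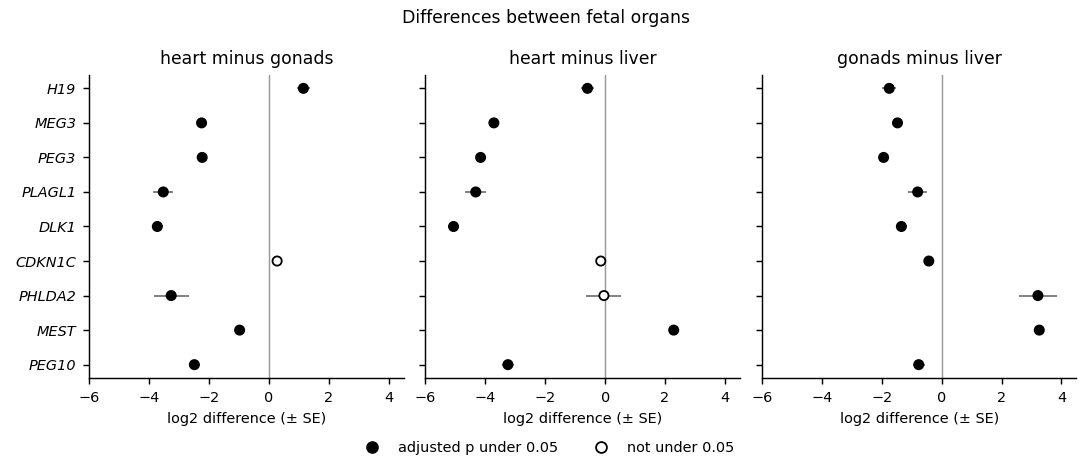
Difference in log2 level between organs for 9 imprinted genes (horizontal axis, log2 units, points with standard error, edgeR), filled where the adjusted p was under 0.05. DLK1 shows the difference farthest from 0 between heart and liver (-5.06), and CDKN1C lies within 0.43 of 0 in all 3 panels, with a sign that turns between heart and gonads and between gonads and liver when libraries are scaled by total counts alone, as do those of PLAGL1 and PEG10 between gonads and liver.

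Of the maternally expressed genes, H19 (Entrez 100126192), a long noncoding RNA, was among the most counted genes of each organ, ranking from 4 to 8 in the gonad libraries, 7 to 15 in livers and 13 to 16 in hearts. These ranks, and those of PEG10 below, include the mitochondrially encoded genes. Such genes took a larger share of the counts in hearts and livers than in gonads, so ranks cannot be compared between organs. Its level was 4625 CPM in the lowest heart library, 7566 in the median one and 8550.0 in the highest, 2327, 2962 and 4323 in gonads, and 7249, 9996 and 16960.1 in livers. The gonads did not overlap with the heart, whereas heart and liver overlapped. The mean was 6984 ± 1601 CPM in hearts (SD, n = 9), 3114 ± 766 in gonads (SD, n = 8) and 10534 ± 3328 in livers (SD, n = 7). H19 was thus higher in the heart than in the gonads by 1.16 log2 units (SE 0.22, adjusted p = 0.000112, edgeR) and lower in the gonads than in the liver (-1.75, SE 0.24, adjusted p = 4.64e-07, edgeR). Against the liver the heart was lower by a smaller amount (-0.59, SE 0.23, adjusted p = 0.0288, edgeR), a call that was lost with the fetus as a block (adjusted p = 0.0543, edgeR) and without fetus 3 (adjusted p = 0.0686, edgeR). Block fits rest only on samples that share a block with another organ, so they use fewer samples. The difference between heart and gonads depended on the scaling, being 0.06 (adjusted p = 0.81, edgeR) with total counts alone, where the median over all genes moved to -1.06.

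MEG3 (Entrez 100335527), the maternally expressed noncoding RNA next to DLK1, rose from heart to gonads to liver. The lowest, median and highest libraries held 163, 212 and 247 CPM in hearts, 824, 968 and 1348 in gonads, and 1648, 2791 and 4184 in livers. The means were 207 ± 29.2 CPM (SD, n = 9), 975 ± 178 (SD, n = 8) and 2726 ± 822 (SD, n = 7). No library of an organ reached the range of the next organ. The heart lay 2.24 log2 units under the gonads (SE 0.17, adjusted p = 1.69e-11, edgeR) and 3.72 under the liver, and the gonads were 1.47 lower than the liver (adjusted p = 3.96e-08, edgeR).

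CDKN1C (Entrez 510972), which encodes p57, an inhibitor of cyclin-dependent kinases, varied least between organs. Its libraries ran from 162 to 281 CPM in hearts, from 157 to 271 in gonads and from 173 to 322 in livers, so all 3 organs overlapped. The means were 233 ± 38.4 CPM in hearts, 191 ± 38.9 in gonads and 258 ± 51.9 in livers. Only the difference between gonads and liver was called (-0.43, SE 0.14, adjusted p = 0.0124, edgeR), and it turned to 0.58 with total counts alone, where the median over all genes moved to 0.93. Heart minus gonads was 0.28 (adjusted p = 0.0944, edgeR) and turned to -0.80 with total counts alone, while heart minus liver was -0.15 (SE 0.14, adjusted p = 0.384, edgeR).

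PHLDA2 (Entrez 618810), a pleckstrin homology domain protein known as a brake on placental growth and located in the domain of CDKN1C, was low everywhere. The gonads held 5.35 to 13.8 CPM (198 to 684 counts), the heart 0.662 to 1.57 CPM (16 to 28 counts) and the liver 0 to 3.35 CPM (0 to 67 counts). The gonads lay above every heart and liver library, by 3.26 log2 units over the heart (SE 0.58, adjusted p = 4.29e-05, edgeR) and 3.22 over the liver (SE 0.64, adjusted p = 0.000111, edgeR). Every heart library lay inside the range of the liver, with means of 1.004 ± 0.298 and 1.02 ± 1.25 CPM (SD, n = 9 and 7).

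Among the paternally expressed genes, PEG3 (Entrez 444864), a zinc finger protein, was steady within an organ and far apart between organs. The lowest, median and highest libraries were at 162, 193 and 209.9 CPM in hearts, 723, 829.3 and 1076 in gonads, and 2367, 3465 and 4554 in livers. With a coefficient of variation of 9.01% its heart level was the least variable of the organ levels of all members. Heart minus liver was -4.16 log2 units (SE 0.15, adjusted p = 3.03e-18, edgeR), gonads minus liver was -1.94 and heart minus gonads was -2.22.

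DLK1 (Entrez 281117), a membrane protein of the Delta family that is known as a marker of fetal hepatoblasts, showed the largest organ difference of the 9 members tested. The heart held 21.5 to 37.6 CPM (median 30.9), the gonads 293 to 555 (median 361) and the liver 562 to 1509 (median 1041). The liver libraries lay above all others, and the mean ratio of liver to heart was 33.4-fold. The fitted differences were -5.06 for heart minus liver (SE 0.20, adjusted p = 1.76e-17, edgeR), -3.72 for heart minus gonads and -1.34 for gonads minus liver (adjusted p = 3.74e-07, edgeR). The last of these was -0.32 (adjusted p = 0.138, edgeR) with total counts alone.

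PEG10 (Entrez 618138), a gene derived from a retrotransposon and known for its role in the placenta, was among the most counted genes of gonads (rank 5 to 25) and liver (rank 19 to 34). Its lowest, median and highest libraries were 308, 397 and 684 CPM in hearts, 1406, 2347 and 3384 in gonads, and 3233, 4224 and 5203 in livers. Only 1 pair of organs, gonads and liver, overlapped. The heart was lower than the gonads by 2.48 log2 units (SE 0.19, adjusted p = 3e-11, edgeR) and lower than the liver by 3.25, and the gonads lay 0.76 under the liver (SE 0.19, adjusted p = 0.00137, edgeR), a difference that turned to 0.26 (adjusted p = 0.269, edgeR) with total counts alone.

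PLAGL1 (Entrez 539761), a zinc finger transcription factor whose gene overlaps ZC2HC1B in the RefSeq annotation, was at 2.06 to 3.15 CPM in hearts, 21.7 to 52.0 CPM in 8 of the 9 gonad libraries and 33.7 to 67.4 CPM in livers. The gonad library of fetus 1 stood apart with 2.11 CPM (78 counts), inside the heart range. The heart was lower than the gonads by 3.52 log2 units (SE 0.33, adjusted p = 1.63e-09, edgeR) and than the liver by 4.32 (SE 0.35, adjusted p = 3.52e-11, edgeR). Gonads minus liver was -0.80 (SE 0.32, adjusted p = 0.0326, edgeR), a call that was lost with the fetus as a block (adjusted p = 0.0644, edgeR) and without fetus 4, 7, 9 or 10 (adjusted p = 0.0551 to 0.102, edgeR), and the difference turned to 0.21 with total counts alone.

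MEST (Entrez 404180), which encodes a hydrolase-like protein of embryonic mesoderm, was lowest in the liver. It was at 142 to 227 CPM in hearts, 212 to 392 in gonads and 26.7 to 45.4 in livers. The liver lay under every library of the other organs, by 2.29 log2 units against the heart (SE 0.15, adjusted p = 3.31e-13, edgeR) and 3.26 against the gonads (SE 0.15, adjusted p = 7.6e-16, edgeR). The heart was 0.97 lower than the gonads (adjusted p = 6.47e-07, edgeR). MEST overlaps COPG2 in the RefSeq annotation, and COPG2 had the same order of means, with 211 CPM in hearts, 735 in gonads and 32.9 in livers, so part of the counts of either gene is uncertain. MEST is also in the list that the study drew from these libraries for the gonads, which is therefore no independent evidence of its direction.

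The ratio of 2 genes of a domain within a library does not depend on how libraries are scaled. It was computed for 4 pairs, and 24 exact permutation tests (two-sided, on log2 ratios, adjusted together) compared organs and transfer groups. The tests between organs took the samples as unpaired, although organs of the same fetus were among them. The ratio of H19 to IGF2 counts rose from heart to gonads to liver, from 1.152 to 1.502 in hearts, 1.689 to 2.729 in gonads and 2.177 to 3.15 in livers. Its means were 1.37 ± 0.111 (SD, n = 9), 2.001 ± 0.381 (SD, n = 8) and 2.77 ± 0.359 (SD, n = 7). Heart did not overlap with the other organs, and all 3 differences passed the exact permutation test (adjusted p = 0.00035 for heart against gonads and against liver and 0.00952 for gonads against liver). IGF2, the paternally expressed growth factor of the domain, was itself at 3082 to 6077 CPM in hearts, 1292 to 2437 in gonads and 2936 to 5384 in livers.

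The ratio of MEG3 to DLK1 counts was 7.05 ± 0.885 in hearts (SD, n = 9), 2.55 ± 0.313 in gonads (SD, n = 8) and 2.78 ± 0.251 in livers (SD, n = 7). The lowest heart value, 5.419, lay above the highest of the other organs, 3.237, and the heart differed from both (exact permutation test, adjusted p = 0.00035). Gonads and liver differed by 0.13 log2 units (exact permutation test, adjusted p = 0.181). PEG10 over SGCE, its paternally expressed neighbour, was 16.9 ± 9.34 in hearts, 26.3 ± 2.99 in gonads and 225 ± 43.1 in livers. The liver value was 8.47-fold above that of the gonads (exact permutation test, adjusted p = 0.000531) and 14.7-fold above that of the heart. Heart and gonads overlapped and differed by 1.74-fold (exact permutation test, adjusted p = 0.0174, but 0.054 without fetus 5 and 0.0504 without fetus 9). MEST over COPG2 was 0.803 ± 0.14 in hearts, 0.446 ± 0.0677 in gonads and 1.16 ± 0.421 in livers, with the same uncertainty of overlap.

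**Figure D3:**
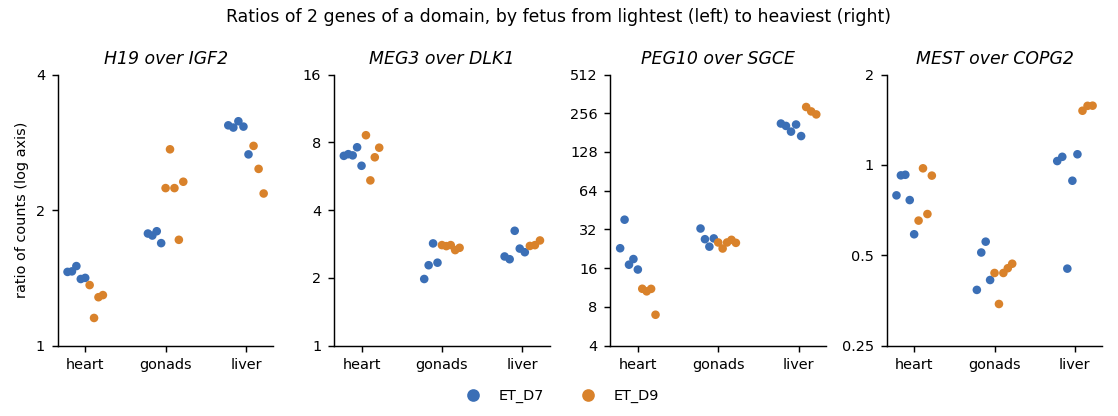
Ratio of the counts of H19 to IGF2, MEG3 to DLK1, PEG10 to SGCE and MEST to COPG2 in each organ library (vertical log axis, no unit), with fetuses ordered from lightest to heaviest within an organ and coloured by transfer group. In the heart the ET_D9 points of H19 over IGF2 (1.152 to 1.363) lie under all ET_D7 points (1.406 to 1.502), and those of PEG10 over SGCE (6.954 to 11.07) lie under all ET_D7 points (15.62 to 38.11).

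In the heart 2 of these ratios separated the transfer groups. H19 over IGF2 was 1.406 to 1.502 in the 5 ET_D7 hearts and 1.152 to 1.363 in the 4 ET_D9 hearts, a 1.14-fold difference (exact permutation test, p = 0.00794, the smallest this design allows, adjusted p = 0.0173). PEG10 over SGCE was 15.62 to 38.11 in ET_D7 and 6.954 to 11.07 in ET_D9, a 2.19-fold difference (exact permutation test, p = 0.00794, adjusted p = 0.0173). Without the libraries close to sums of others, which removes heart 1, both were at the smallest p that 4 against 4 allows (exact permutation test, p = 0.0286, adjusted p = 0.0572). Leaving out fetus 1, 2, 3, 4 or 5 gave the same p with an adjusted p of 0.0528 or 0.0572 for both ratios, and leaving out fetus 10 gave an adjusted p of 0.0714 for PEG10 over SGCE (exact permutation test). SGCE is in the list that the study drew from these hearts for its trend with weight, so the latter ratio is no independent evidence. The summed level of 4 endothelial markers also separated the groups in the heart, at 169 to 225 CPM in ET_D7 and 238 to 326 in ET_D9, and its part in these ratios was not tested. In the liver PEG10 over SGCE was 170.2 to 213 in ET_D7 and 250.8 to 286.3 in ET_D9 (exact permutation test, p = 0.0286, the smallest possible, adjusted p = 0.0528). In the gonads no ratio passed the adjusted threshold between transfer groups.

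The next question was whether the level of each gene changed with fetal weight. Along weight, no member was called in any tissue with edgeR. Of all genes tested, the heart fit called 6.77%, the gonad fit 0%, the liver fit 1.55% and the blood fit 0%. At an unadjusted p under 0.05, 3 of 9 members had a trend in the heart, 1 of 9 in gonads, 2 of 9 in livers and 2 of 6 in blood, beside 29.1%, 5.86%, 12.7% and 9.69% of all genes. DESeq2 called PEG10 in hearts, H19 in livers and no member in gonads or blood, and over all genes it called more than edgeR in hearts and livers. In the heart 8 of the 9 slopes were negative, with a median of -0.07 log2 units per 0.1 g, beside -0.01 over all genes.

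**Figure D4:**
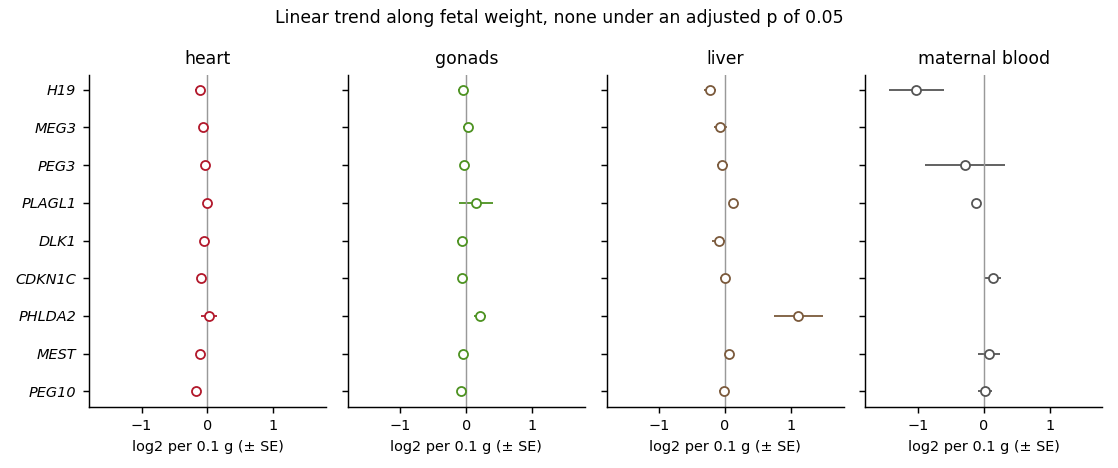
Slope of log2 level per 0.1 g of fetal weight (horizontal axis, points with standard error, edgeR) for each imprinted gene in heart, gonads, liver and maternal blood, open because no adjusted p was under 0.05. PHLDA2 in livers (1.11) and H19 in maternal blood (-1.03) lie farthest from 0, and MEG3, DLK1 and PHLDA2 were too low in blood to be tested.

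PEG10 had the steepest slope of the members in hearts. Its level was 502, 684, 551, 409 and 397 CPM in ET_D7 hearts 1 to 5 and 356, 363, 378 and 308 CPM in ET_D9 hearts 6, 8, 9 and 10. All ET_D9 hearts were lower than all ET_D7 hearts. The slope was -0.17 log2 units per 0.1 g (SE 0.06, p = 0.0145, adjusted p = 0.0893, edgeR), and DESeq2 gave an adjusted p of 0.043. Without the libraries close to sums of others, here heart 1, the slope was -0.19 (adjusted p = 0.164, edgeR) and the adjusted p of DESeq2 was 0.084. MEST and CDKN1C also had unadjusted p-values under the threshold in the heart, with slopes of -0.11 in both (adjusted p = 0.125 and 0.17, edgeR). MEST was at 184, 227, 192, 168 and 145 CPM in ET_D7 hearts and 152, 150.3, 142 and 143 in ET_D9 hearts, so its groups overlapped.

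PHLDA2 was the member with the steepest slope in the liver. It had 2, 5, 0, 0 and 14 counts in ET_D7 livers 1 to 5 (0.107, 0.233, 0, 0 and 0.456 CPM) and 45, 67 and 19 counts in ET_D9 livers 8, 9 and 10 (1.9, 3.35 and 1.24 CPM). The groups did not overlap, but all values were low. The slope was 1.11 per 0.1 g (SE 0.37, p = 0.0142, adjusted p = 0.243, edgeR), and with the transfer group as a covariate it was 0.32 (adjusted p = 0.988, edgeR). Without liver 9, the liver library close to a sum of others, PHLDA2 fell under the filter on low counts, and with no such filter its slope was 0.98 (SE 0.58, adjusted p = 0.675, edgeR). The liver libraries of ET_D9 also held more of a trophoblast marker list, which summed to 0 to 9.95 CPM in ET_D7 and 13.2 to 24.6 CPM in ET_D9. Its main part was the epithelial keratin KRT7. The other genes of the list, PAG2, CSH2 and PRP1, had a median of 0 CPM in livers. Each was highest in liver 9, at 1.001, 1.703 and 1.001 CPM, the library that also held the most PHLDA2. The part of this list in the PHLDA2 result was not tested. In the gonads PHLDA2 was at 5.35, 6.84, 11.3 and 6.96 CPM in ET_D7 libraries 1, 3, 4 and 5 and at 10.9, 13.8, 10.5, 9.68 and 11.5 CPM in ET_D9 libraries 6 to 10, with overlap through fetus 4. Its slope there was 0.21 (SE 0.09, p = 0.0409, adjusted p = 0.851, edgeR).

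H19 in livers ran the other way, with 13172, 11874, 16960.1, 9231 and 10525.5 CPM in ET_D7 livers and 9467, 7249 and 7778 CPM in ET_D9 livers, which overlapped. Its slope was -0.23 per 0.1 g (SE 0.09, p = 0.0312, adjusted p = 0.327, edgeR), and DESeq2 gave an adjusted p of 0.0328, which was 0.329 without liver 9. PLAGL1 in the liver was at 41.9, 38.7, 33.7, 52.6 and 51.7 CPM in ET_D7 and 61.6, 54.5 and 67.4 CPM in ET_D9, with no overlap and a slope of 0.12 (adjusted p = 0.473, edgeR), which was 0.14 without liver 9 (adjusted p = 0.854, edgeR). In the gonads the PLAGL1 slope was 0.15 (SE 0.26, adjusted p = 0.984, edgeR) and -0.10 without fetus 1, whose library held 2.11 CPM against 34.3, 34.2 and 35.9 CPM in the other ET_D7 libraries and 45.4, 21.7, 52.0, 33.6 and 24.0 CPM in ET_D9. A spline of weight called PLAGL1 in gonads with edgeR, where the linear term did not, and PLAGL1 is in the list that the study drew from these gonad libraries.

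**Figure D5:**
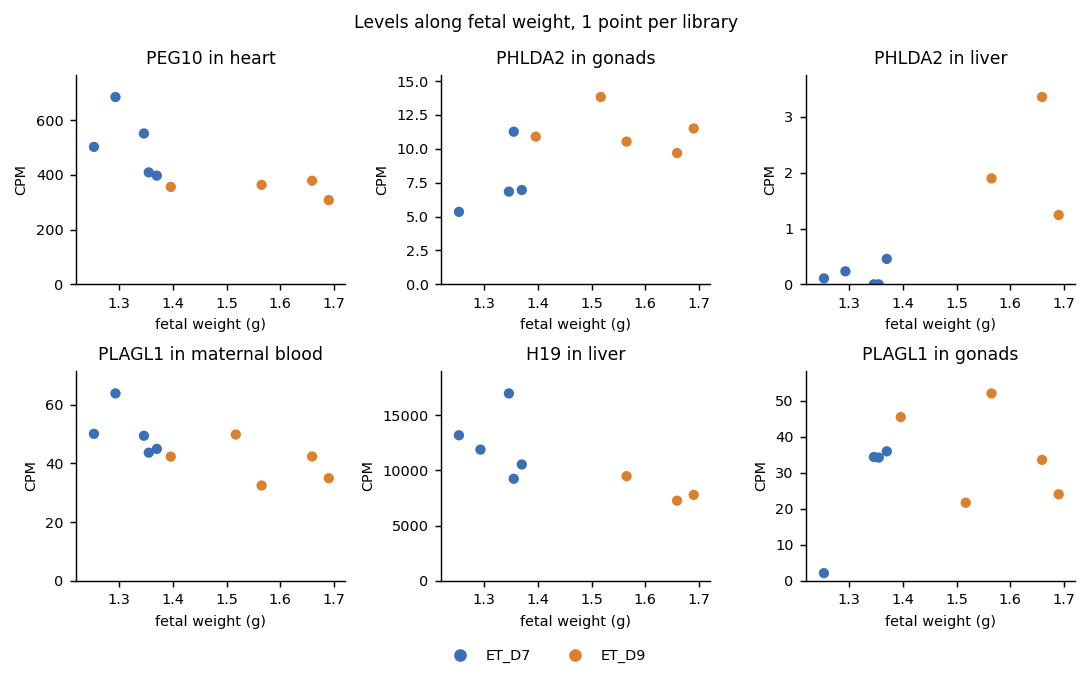
Level in CPM (vertical axis from 0) against fetal weight in g for 6 pairs of gene and tissue, 1 point per library, coloured by transfer group. PEG10 in hearts lies at 397 to 684 CPM in ET_D7 and 308 to 378 CPM in ET_D9, and PLAGL1 in gonads shows the single library at 2.11 CPM.

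Between transfer groups, no member was called in the heart (0.0492% of all genes called), the gonads (0.0113%), the liver (2.17%) or maternal blood (0%) with edgeR. At an unadjusted p under 0.05 the members numbered 2 of 9, 1 of 9, 2 of 9 and 2 of 6. Of all genes 24.6%, 13%, 13.3% and 7.6% had such a p. DESeq2 called PEG10 in hearts, H19 and PHLDA2 in livers and no member in gonads or blood. Over all genes it also called more than edgeR in hearts and livers, as given below. The groups did not overlap for 1 of 9 members in hearts (PEG10), 0 of 9 in gonads, 2 of 9 in livers (PLAGL1 and PHLDA2) and 0 of 6 in blood, beside 9.74%, 7.73%, 15.2% and 1.29% of all genes. PEG10 in the heart was lower in ET_D9 by 0.54 log2 units (SE 0.18, adjusted p = 0.115, edgeR). H19 in the liver was lower by 0.74 (SE 0.29, adjusted p = 0.296, edgeR). PHLDA2 in livers averaged 2.16 CPM in ET_D9 against 0.156 in ET_D7, a fitted difference of 3.48 (SE 1.11, adjusted p = 0.186, edgeR). Without the libraries close to sums of others DESeq2 called no member in hearts or livers, with an adjusted p of 0.102 for PEG10 in hearts, 0.313 for H19 in livers and, with no filter on low counts, 0.584 for PHLDA2 in livers.

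Whether slopes differed between organs was tested directly in 1 fit over all organ samples. PHLDA2 had a slope lower in the heart than in the liver by 1.10 log2 units per 0.1 g (SE 0.28, adjusted p = 0.0191, edgeR), the single member called among 9, where 7.17% of all genes were called. With the fetus as a block the adjusted p was 0.112, without the libraries close to sums of others it was 0.162, and it was 0.0502 without fetus 8 and 0.0916 without fetus 9 (edgeR). Samples alone in their block, among them the averaged liver sample of fetuses 1 and 2, added nothing to the block fit. The heart level of PHLDA2 ranged only from 0.662 to 1.57 CPM. Between gonads and liver, where 4.9% of all genes were called, its slopes differed by 0.92 in the same direction (adjusted p = 0.0728, edgeR), with an adjusted p of 0.00289 in DESeq2 and 0.0369 in edgeR with all libraries counted singly, and by 0.80 without the libraries close to sums of others (adjusted p = 0.292, edgeR). Between heart and gonads no member was called (0.0257% of all genes, edgeR), none had an unadjusted p under 0.05 and DESeq2 called none.

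In maternal blood, whose libraries were prepared with another kit, levels were set beside those of the organs and not tested against them. PLAGL1 was at 50.05, 63.8, 49.4, 43.6 and 44.9 CPM in heifers carrying ET_D7 fetuses 1 to 5 and 42.3, 49.8, 32.5, 42.4 and 34.9 CPM in those carrying ET_D9 fetuses 6 to 10, with overlap. Its slope was -0.13 per 0.1 g (SE 0.04, p = 0.0136, adjusted p = 0.422, edgeR). PEG10 averaged 2.88 ± 0.906 CPM, MEST 1.48 ± 0.71 and CDKN1C 1.25 ± 0.424 (SD, n = 10), with counts in all 10 libraries. DLK1 had 0 counts in all 10, which allows up to 0.0735 to 0.113 CPM when scaled by total counts alone and with each count taken as independent. As for NNAT, this limit may be too low. MEG3 and PHLDA2 had counts in 3 libraries each, at most 8 and 4.

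H19 in blood differed widely between heifers. It was at 10.9, 33.3, 0.925, 0.148 and 5.85 CPM in ET_D7 and at 0.0504, 5.27, 0.134, 0.343 and 1.17 CPM in ET_D9, from 2 to 1440 counts. The slope of -1.03 per 0.1 g (SE 0.42, p = 0.0298) missed the threshold (adjusted p = 0.468, edgeR). PEG3 was at 4.46 CPM in the blood library of fetus 5 and at most 0.54 in the others. The heart muscle list was high in some of the same libraries, at 3361 CPM for fetus 2, of which the myosin heavy chain MYH7 made 3338, and 1109 CPM for fetus 5, against at most 17.5 in the other 8. These sums came almost only from MYH7. In blood MYH6 reached at most 20.3 CPM, and ACTC1, MYL7, NPPA and TNNT2 at most 2.22 CPM. The mesenchyme list was at 312 CPM for fetus 1, 77.0 for fetus 7 and 341 for fetus 10, against at most 26.5 in the other 7, while the trophoblast list never passed 0.243 CPM nor the hepatocyte list 0.375 CPM. The part of these markers in the blood levels of H19 and PEG3 was not tested.

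Other genes of the same domains spread in both directions. Of 31 domain neighbours tested, 8 were higher in the heart than in the gonads and 17 lower (median difference -1.25, beside -0.09 over all genes, edgeR), 8 were higher in the heart than in the liver and 12 lower (-0.46, beside 0), and 9 were higher in the gonads than in the liver and 9 lower (0.13, beside 0). Of all genes, 22.7% and 22.9%, 27% and 30.3%, and 30% and 32.6% were called in these directions. DIO3, the deiodinase gene of the DLK1 and MEG3 domain, was at 4.41 CPM in gonads, 0.0321 in hearts and 0.191 in livers. RTL1, a retrotransposon-derived gene of that domain, was at 0.251 CPM in hearts, 4.96 in gonads and 3.83 in livers, lowest in the heart like MEG3 and DLK1. SLC22A18, an organic cation transporter gene between PHLDA2 and CDKN1C, was at 34.2 CPM in livers against 2.34 in hearts and 0.476 in gonads (gonads minus liver -6.16, adjusted p = 9.96e-17, edgeR). ASCL2, a transcription factor of trophoblast, was at 2.3 CPM in livers and at most at a mean of 0.084 in the other organs. KLF14 was at 195 CPM in the liver of fetus 3 and at a mean of 0.0224 in the other 6 liver samples, so its liver mean of 27.9 CPM rests on 1 library. ZIM3 had its highest organ mean at 0.469 CPM in gonads, and PON3, a paraoxonase near PEG10, was at 8.35 CPM in hearts and 0.309 in gonads.

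Along weight 3 of the 22 domain neighbours tested in the heart were called, beside 6.77% of all genes, and all 3 lie in the domain of PEG10. PON2 rose by 0.26 log2 units per 0.1 g (adjusted p = 0.0433, edgeR), SGCE by 0.21 (adjusted p = 0.0442, edgeR) and PPP1R9A by 0.13 (adjusted p = 0.0464, edgeR), while PEG10 itself had the negative slope given above. No gene of the whole table passed the threshold for this trend without fetus 1, 2, 4, 5, 8 or 10, so these 3 calls rest on each of those libraries. In the liver PON3 fell by 2.78 in ET_D9 (SE 0.37, adjusted p = 0.00239, edgeR), in a comparison whose calls over all genes went from 24 higher and 328 lower to at most 1 higher and 3 lower without fetus 3, 4 or 5. The livers of fetuses 3, 4 and 5 also held the most of the heart muscle list (1985, 661 and 374 CPM), and its part was not tested. No neighbour was called along weight in the gonads, liver or blood with edgeR.

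A further 23 genes listed as imprinted in some mammals were tested, and whether they are imprinted in these cattle organs was not examined. Of these 23, 6 were higher in the heart than in the gonads and 9 lower, 8 were higher in the heart than in the liver and 10 lower, and 10 were higher in the gonads than in the liver and 6 lower (edgeR), beside 22.7% and 22.9%, 27% and 30.3%, and 30% and 32.6% of all genes. TFPI2, a protease inhibitor gene, was at 0.513 CPM in hearts, 7.51 in gonads and 9.04 in livers. GATM, an enzyme of creatine synthesis, was at 14.7, 1.6 and 63.4 CPM in the same order, DDC, the aromatic amino acid decarboxylase, at 0.615, 2.23 and 28.5, and SFMBT2, a Polycomb gene, at 11.2, 87.6 and 8.03. ZDBF2 was at 0.612, 1.06 and 3.99 CPM, and at 1.73 in livers without fetus 9. Along weight 3 of 23 were called in the heart, beside 6.77% of all genes. In the heart NDN fell by 0.16 per 0.1 g (adjusted p = 0.0419, edgeR), and GATM and NDUFA4 rose by 0.50 and 0.15 (adjusted p = 0.0474 and 0.0494, edgeR), with the same dependence on single hearts. OSBPL5 in livers fell by 1.90 in ET_D9 (adjusted p = 0.0294, edgeR), with the same dependence on single livers as PON3.

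Of 7 relatives of the members that are not known as imprinted, 5 were higher in the heart than in the gonads and 1 lower (median difference 1.29, beside -0.09 over all genes, edgeR), where 22.7% and 22.9% of all genes were called. Against the liver 3 were higher in the heart and 2 lower (27% and 30.3% of all genes), and 1 was higher in the gonads and 2 lower (30% and 32.6%). CDKN1A, the relative of CDKN1C that encodes p21, was at 7.71 CPM in hearts, 0.795 in gonads and 1.16 in livers, and CDKN1B, which encodes p27, at 38.9, 15.8 and 44.0. PHLDA3 was at 59.0, 15.3 and 105 CPM, so that it was lowest in the gonads, where PHLDA2 was highest, and PHLDA1 was at 22.7, 13.7 and 11.1. PLAG1, the relative of PLAGL1, was at 39.8, 35.2 and 15.6 CPM and lowest in the liver, where PLAGL1 was highest. DLK2 was at 0.803, 0.136 and 0.262 CPM. No relative was called along weight or between transfer groups in any tissue with edgeR.

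Of 8 partners of p57 tested, 2 were higher in the heart than in the gonads and 4 lower, 3 higher in the heart than in the liver and 3 lower, and 4 higher in the gonads than in the liver and 3 lower (edgeR), beside 22.7% and 22.9%, 27% and 30.3%, and 30% and 32.6% of all genes. The cyclin gene CCNE1 was at 7.17 CPM in hearts, 23.8 in gonads and 80.8 in livers, CCND2 at 27.4, 12.4 and 13.5, and the kinases CDK6 and CDK4 at 256.2, 60.4 and 373 and at 63.1, 80.6 and 31.5. Of 9 genes that keep imprints, 1 was higher in the heart than in the gonads and 5 lower, 3 higher in the heart than in the liver and 5 lower, and 4 higher in the gonads than in the liver and 2 lower (edgeR), beside the same shares of all genes. ZFP57, the zinc finger protein that binds methylated imprint control regions, was at 8.08 CPM in hearts, 1.77 in gonads and 0.867 in livers, and ZNF445 at 46.7, 73.2 and 15.4. DNMT1, the maintenance DNA methyltransferase, was at 39.1, 96.9 and 90.4 CPM, and SMCHD1 at 29.3, 68.2 and 35.2, with a rise of 0.24 per 0.1 g in the heart (adjusted p = 0.0419, edgeR), the call of 1 in 8 genes of this list beside 6.77% of all genes, with the same dependence on single hearts. DPPA3 was at 0 in all hearts and at a mean of 0.0125 CPM in gonads, and its liver mean of 0.309 CPM was set by 1.83 CPM in fetus 4, without which it was 0.0543.

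In the same fit of slope differences, 10 genes of these lists were called for heart minus liver, of 75 tested, beside 7.17% of all genes, and 6 for gonads minus liver, beside 4.9%. With the fetus as a block 2 of the 10 and 2 of the 6 were still called (CDKN1A and OSBPL5 in both cases), while the calls over all genes fell from 1397 to 435 and from 955 to 375. Samples alone in their block added nothing to that fit. Without the libraries close to sums of others 4 of the 10 (CDKN1A, USP29, NDN and CCND2) and 1 of the 6 (CDKN1A) were called. CDKN1A, which was called in each of these fits, had the higher slope in heart and gonads than in the liver, by 1.13 and 1.21 log2 units per 0.1 g (adjusted p = 0.000246 and 0.00024, edgeR), where its liver level was 1.16 ± 1.04 CPM (SD, n = 7). OSBPL5 also had higher slopes in heart and gonads than in the liver (0.50 and 0.58), and its calls were lost without the libraries close to sums of others (adjusted p = 0.113 and 0.0803, edgeR). For heart minus liver, the values that were not called with the block were 0.33 for SGCE, 2.86 for USP29 at organ means of 0.0573 and 0.117 CPM, 0.25 for ZNF445, -0.30 for NDN, -0.69 for ADAM23, -0.42 for CCND2, -0.36 for CDK2 and -0.25 for UHRF1 (adjusted p = 0.0515 to 0.323 with the block, edgeR). For gonads minus liver they were -1.95 for DIO3, -0.26 for NDN, -0.24 for UHRF1 and 1.18 for PON3 (adjusted p = 0.0826 to 0.242 with the block, edgeR).

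Within organs, the gene whose log2 level deviated most like a member's was sought among 16083 genes over the 24 organ samples, as a description of samples that share library preparation and composition. H19 was closest to HCFC1R1 (Pearson r = 0.96), PLAGL1 to ATP2B1 (0.961), MEG3 and DLK1 both to COLGALT1 (0.93 and 0.906), PEG3 to LOC101906317 (0.917) and CDKN1C to NUDT3 (0.89). MEST and PEG10 were both closest to SEPTIN6 (0.88 and 0.857), and PHLDA2 to the gene with Entrez identifier 112445084 (0.823), for which r was 0.992 in livers but -0.377 in hearts. For PLAGL1 and ATP2B1 r was 0.993 in gonads, where the library of fetus 1 stood apart in PLAGL1, and 0.51 in hearts. It was also lower in single organs for DLK1 (0.637 in hearts) and PEG10 (0.53 in livers). Among the members themselves, MEST and PEG10 (r = 0.896), MEG3 and DLK1 (0.872) and H19 and CDKN1C (0.702) had the highest values over the 24 samples. The lowest values were those of PLAGL1 with CDKN1C (-0.549), H19 (-0.523) and DLK1 (-0.447), while H19 and PEG10 had -0.0503.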

How the data were processed

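Gene-level read counts were deposited by the authors for all 36 libraries (heart, gonads and liver from a poly(A) selecting stranded kit, blood from another stranded kit). Per the submitters' notes, reads were checked with FastQC 0.11.9, trimmed with Trimmomatic, aligned with STAR 2.7.0b and counted with featureCounts of Subread 2.0.3. The genome build was ARS-UCD1.3, and the strand setting of the counting is not given in the sources used here. The study had discarded 1 heart, 1 gonad and 2 liver samples after quality control.

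From the counts, CPM on TMM-scaled library sizes and quasi-likelihood tests were computed with edgeR 4.0.16 (R 4.3.3), with DESeq2 1.42.0 as the alternative, and p-values were adjusted by Benjamini-Hochberg over all genes tested, with a threshold of 0.05. Organ comparisons used genes with at least 1 count, fits within a tissue and fits of slope differences used genes that reached 10 counts in 4 or more libraries. Ratios were tested by exact permutation in R. Medians and extremes are over libraries, means and tests over samples. Pairs of libraries that differed by less than the sampling noise were averaged into 1 sample, so the 26 organ libraries gave 24 samples, which departs from the planned use of all libraries. The p-values measure the spread between these samples. Scripts were tested on simulated data.

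Libraries of an organ and of another with the same number come from the same fetus according to the labels, which is the source of the pairing, and deviations from the organ means had a median correlation of 0.116 between heart and gonads of a fetus, 0.0199 between heart and liver and 0.0272 between gonads and liver. The named genes were all 10 members, up to 3 called genes of each list with the largest difference per organ comparison, every called gene of a list along weight or between transfer groups, and the closest gene of each member. The members and lists were chosen with earlier results of these data known. Gene names, overlaps and neighbours came from RefSeq on ARS-UCD2.0 (31630 of 35092 identifiers had a symbol). The overlaps and neighbours rest on the coordinates of that assembly, while the counts used ARS-UCD1.3. Alternatives were other size factors, another test, filters, mitochondrial genes left out, the transfer group as covariate, a spline of weight, the fetus as a block and leaving out each fetus. In the block fits the averaged samples (gonads 6 and 8, livers 1 and 2) were blocks of their own. These samples, heart 2, heart 6 and gonads 7 had no other organ in their block and added nothing to the differences. A robust prior, total counts alone, all libraries counted singly, and leaving out the libraries close to sums (also in DESeq2 and with no filter) or the gonad library of fetus 1 were chosen after seeing the data. Breed is not given in the sources used here.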

Additional observations from a re-analysis of the deposited data

Results flagged for a closer look

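H19 in maternal blood had a highest library of 33.3 CPM, in the heifer of fetus 2, far from the next one at 10.9 CPM, so that the gap made 0.672 of the range of the 10 libraries, above the critical value of 0.466 for 10 samples. PEG3 in maternal blood stood out in the same way in the heifer of fetus 5, with 4.46 CPM against at most 0.54 in the others (gap 0.879 of the range). The heart muscle list was also highest in these 2 libraries, at 3361 and 1109 CPM, almost only through MYH7. In every blood library ACTC1, MYL7, NPPA and TNNT2 stayed at 2.22 CPM or less. The part of the list was not tested. Of 33 groups of samples examined for such a library 2 had one, and chance gives about 1 in 20 for normally distributed values. In blood H19 had an SD of 10.3 CPM at a mean of 5.81, and PEG3 an SD of 1.36 at a mean of 0.622. The rate may therefore not hold for them.

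The slope of PHLDA2 along fetal weight differed between heart and liver by -1.1 log2 units per 0.1 g in the test of the difference itself. In the liver this rests on 0 to 14 counts in ET_D7 and 19 to 67 counts in ET_D9.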

How the results depend on the processing

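These organ differences kept their direction and their call under every alternative run: MEG3, PEG3, PLAGL1, DLK1, PEG10, PHLDA2 and MEST between heart and gonads, MEG3, PEG3, PLAGL1, DLK1, MEST and PEG10 between heart and liver, and H19, MEG3, PEG3, PHLDA2 and MEST between gonads and liver. With total counts as the only scaling, the median over all genes moved to -1.06 for heart minus gonads and 0.93 for gonads minus liver, and the calls over all genes were 2016 higher and 12610 lower (5697 and 5733 with TMM) and 11642 higher and 4587 lower (7517 and 8169 with TMM). CDKN1C then turned to -0.80 for heart minus gonads and 0.58 for gonads minus liver, PLAGL1 to 0.21 and PEG10 to 0.26 for gonads minus liver, all relative to that shift. DESeq2's own medians lay at -0.14 for heart minus liver and -0.31 for gonads minus liver, and it called CDKN1C between heart and liver (-0.31, adjusted p = 0.0463). CDKN1C was called between heart and gonads without fetus 1 (0.35, adjusted p = 0.0398, edgeR) and without its gonad library alone (0.37, adjusted p = 0.0245, edgeR).

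Along weight DESeq2 called 1 member in the heart and 1 in the liver, and a spline 1 in the gonads, in place of 0. Between transfer groups DESeq2 called 1 member in the heart and 2 in the liver in place of 0. For slopes between gonads and liver, DESeq2 and the fit with all libraries counted singly each called 1 member in place of 0. For slopes between heart and liver, the call of 1 member became 0 without the libraries close to sums of others and 0 with the replicate block, and ranged from 0 to 1 when each fetus was left out. The cause was not tested. Among the members the block changed no other call than those of H19 between heart and liver, PLAGL1 between gonads and liver and this slope of PHLDA2. The block also leaves samples alone in their block without weight, so pairing and fewer samples cannot be told apart in these changes. Counted singly, PEG10 over SGCE and MEST over COPG2 separated the transfer groups in the liver (exact permutation test, adjusted p = 0.0307 for both).

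Over all genes, the calls along weight in the heart numbered 1100 with edgeR, 3066 with DESeq2 and 0 with the transfer group as a covariate, those in the liver 251 and 740 (edgeR and DESeq2), and those between transfer groups 8 and 2166 in the heart and 352 and 897 in the liver. For slopes between heart and liver 1397 genes were called, and 435 with the block. Of the 16 slope differences called among genes of the related lists, 4 were called with the block and 5 without the libraries close to sums of others. Levels near the limit of 3 counts, as for PHLDA2 in the liver and for MEG3 and PHLDA2 in blood, are set by few reads.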

Other observations

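The share of even numbers among counts of 1 to 10 was 43.91% to 57.03% in 5 libraries (heart of fetus 1, gonads of fetus 8 and livers of fetuses 1, 8 and 10) and 70.03% to 87.47% in the other 31. The liver library of fetus 3, the one with the highest H19 level (16960.1 CPM), held the cardiac actin gene ACTC1 at 1884 CPM. The whole heart muscle list summed to 9.92, 10.7, 1985, 661 and 374 CPM in ET_D7 livers 1 to 5. In ET_D9 livers 8, 9 and 10 it summed to 105, 50.8 and 7.00 CPM. Its part in the liver differences between transfer groups was not tested.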
